A study of Canis lupus familiaris with 20 samples.

Results

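The comparison of MPS VII with control vertebral cartilage at postnatal day 14 rests on 10 of the 20 RNA-seq libraries of the series, 5 affected and 5 control, each from 1 dog. Mucopolysaccharidosis VII (MPS VII) is a lysosomal storage disease caused by loss of beta-glucuronidase, the enzyme encoded by GUSB. The affected dogs were homozygous for the naturally occurring GUSB missense mutation of this canine line, in all cells from conception, and the controls were heterozygous and matched by litter, so that both groups carried the allele. Epiphyseal cartilage of the T12 vertebra was taken beside the growth plate at both ends, freed of disc tissue and pooled per dog. The 10 libraries of the day 9 groups, of the same 2 genotypes, were used for the shared estimate of spread and for the comparison between ages. The 10 members are the columns that the count table names for day 14, and the comparison covers the 14550 genes that passed the filter on low counts.

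The count table gives Ensembl gene IDs with CanFam3.1 positions and no gene names. Names were taken by matching gene order and span to RefSeq genes of the dog assembly UU_Cfam_GSD_1.0, which gave a symbol to 12021 (82.6%) of the tested genes, 10963 by a close match of spans and 1058 by a partial one. A name is therefore a positional assignment; DMP1, ALPL, RUNX2, SP7, SLC9B2, DCSTAMP, SOX5, ROR2, WNT4, BMP6, BMPR1B, TIMP2, TFEB, PGF, C3AR1, C5AR1, SMO, SPRY1, DLX6 and IL34 are partial matches. Positions are gene spans in CanFam3.1 as the table gives them.

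Vertebrae lengthen and their epiphyses turn to bone by endochondral ossification. Chondrocytes of a cartilage template stop dividing, enlarge into hypertrophic cells that make type X collagen and proteases, and are replaced by vessels, osteoclasts and osteoblasts that lay down mineralised bone. Beta-glucuronidase removes glucuronic acid from chondroitin, dermatan and heparan sulfate in the lysosome, and without it partly degraded glycosaminoglycans accumulate in chondrocytes, macrophages and other cells. In MPS VII dogs the vertebral epiphyses are known for cartilage that persists where bone should form, and the series was designed to profile that failure.

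GUSB at chr6:729625-743950, the mutated gene, was read at 79.2, 90.5, 112, 93.0 and 96.7 CPM (counts per 1000000 library counts after TMM scaling, which sets libraries to a common composition) in control replicates 1 to 5 and at 82.3, 78.9, 59.1, 103 and 72.8 CPM in affected replicates 1 to 5. The groups overlapped, and the log2 fold change of -0.25 (SE 0.14) did not pass the test (adjusted p = 0.215, edgeR's quasi-likelihood test). A missense change can leave the transcript in place, so this level does not check the genotype labels. The cartilage genes COL2A1 and ACAN were abundant in all 10 libraries, COL2A1 at 80690.2 to 284596 CPM and ACAN at 4269 to 13046 CPM. The tested members of the skeletal muscle and erythroid lists, 9 of 14 and 6 of 14, summed to at most 69.8 and 47.6 CPM in any day 14 library. Members without a matched name are not in these sums.

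Of the 14550 genes, 3202 (22.0%) differed between genotypes at day 14 at an adjusted p under 0.05: 1640 (11.3%) were higher and 1562 (10.7%) lower in MPS VII. Of the called genes, 644 (4.43% of those tested) were at least 2-fold higher and 573 (3.94%) at least 2-fold lower. The affected and control libraries did not overlap for 2779 genes (19.1%), 9.27% of genes lying higher and 9.83% lower in every affected library. The first principal component of log2 CPM held 48.4% of the variance and set the controls, at -56.1 to -29.9, apart from the affected libraries, at 31.2 to 51.3. At day 9 the same test called 1220 genes (8.38%). The day 14 count of each gene list below is to be read beside the 11.3% higher and 10.7% lower of all tested genes.

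Libraries within each group were not uniform. Control replicates 1 and 4 had the lowest COL2A1 of the 10 libraries and, of the controls, the highest IBSP, SPP1, DMP1, DLX3, SOST and COL1A1. Affected replicates 3 and 5 stood at 46.4 and 34.0 on the second component (15.1% of the variance), the other affected libraries at -31.3 to -11.7. Without control replicates 1 and 4, 1638 genes were called, 775 higher and 863 lower, and without affected replicates 3 and 5, 3310. The part of tissue composition in these differences was not tested, and in bulk tissue fewer cells of a type and less RNA per cell cannot be told apart.

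The secreted phosphoproteins of mineralised bone fell. Of their list of 5, IBSP, SPP1 and DMP1 were matched and tested, and all 3 passed the test as lower. They lie on chromosome 32 in the order DMP1 at chr32:11051535-11052842, IBSP at chr32:11189932-11200350 and SPP1 at chr32:11354096-11362391.

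IBSP, bone sialoprotein, which nucleates mineral, was at 3655, 1649, 2429, 4875 and 2667 CPM in the controls and at 83.3, 81.2, 184, 161 and 102 CPM in the affected libraries. Every control was far above the highest affected library. The log2 fold change was -4.64 (SE 0.35), 24.98-fold lower (edgeR, adjusted p = 1.17e-08).

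SPP1, osteopontin, made by hypertrophic chondrocytes, osteoblasts and osteoclasts, was at 6976, 3873, 4880.4, 8354 and 4796 CPM in the controls and 762, 977, 1318, 1579 and 1438 CPM in the affected libraries. Again no value overlapped, with a log2 fold change of -2.25 (SE 0.28) (edgeR, adjusted p = 5.42e-06). DMP1, a matrix protein of osteocytes, was at 226, 71.6, 71.1, 316 and 109 CPM in the controls, where replicates 1 and 4 were the high ones. It was at 1.93, 2.47, 4.13, 6.62 and 3.93 CPM in the affected libraries, and its log2 fold change was -5.39 (SE 0.86) (edgeR, adjusted p = 0.000145). Over the 18 alternative settings tried, IBSP stayed between -4.84 and -4.21 and DMP1 between -5.67 and -4.48 on the log2 scale.

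The osteoblast list had 12 tested genes of 16. Of these, 8 fell, 1 rose and 3 did not pass, with a median log2 fold change of -2.01, against 0.03 over all genes tested. RUNX2, SP7, ALPL and DLX6 are 4 of the 8 and are named by partial matches. The transcription factors of the lineage were among those that fell. RUNX2 at chr12:13786142-13843688, which commits cells to osteoblasts and drives chondrocyte hypertrophy, averaged 228 ± 37.0 (SD, n = 5) CPM in the controls and 60.5 ± 10.3 CPM (SD, n = 5) in MPS VII. Its log2 fold change was -1.91 (SE 0.14) (edgeR, adjusted p = 1.03e-08). SP7, osterix, acts downstream of RUNX2 and changed by -2.51 (SE 0.52) (edgeR, adjusted p = 0.00166).

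DLX3 at chr9:26017194-26023071, a homeobox factor of bone and hypertrophic cartilage, was at 15.2, 7.11, 6.58, 20.5 and 11.8 CPM in the controls and 0.184, 0.190, 0.223, 0.530 and 0.388 CPM in the affected libraries. Its log2 fold change was -5.32 (SE 0.62) (edgeR, adjusted p = 2.98e-06). MEF2C, a factor of hypertrophy and osteocytes, changed by -1.94 (SE 0.26).

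Type I collagen, the bulk protein of bone, did not pass the test. COL1A1 was at 5930.5, 3274, 4032, 12064 and 4769.6 CPM in the controls and 3689.7, 3789, 1159, 1654 and 2736 CPM in the affected libraries. The groups overlapped, and the log2 fold change of -1.21 (SE 0.56) did not pass (edgeR, adjusted p = 0.139), although it did in the fit of day 14 libraries alone (edgeR, adjusted p = 0.0374; 0.102 to 0.606 in the other alternatives). COL1A2 gave -0.86 (SE 0.53) (edgeR, adjusted p = 0.273). SPARC, osteonectin, which is also abundant in cartilage, rose by 0.60 (SE 0.18) (edgeR, adjusted p = 0.0194), a call lost without control replicate 1 and without control replicates 1 and 4. Fibroblasts and periosteum also make type I collagen. Their list without COL1A1 and COL1A2 summed to 4656 to 6969 CPM in the controls and 6167 to 10360.02 CPM in MPS VII, with 4 of 10 genes higher and 0 lower, and its part in the collagen values was not tested.

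All 5 tested genes of the mineralisation list fell. ALPL, alkaline phosphatase, which frees phosphate for mineral, was at 209, 183, 342, 310.4 and 287 CPM in the controls and 34.9, 19.8, 27.5, 18.5 and 14.9 CPM in the affected libraries. These ranges lay far apart, with a log2 fold change of -3.52 (SE 0.66) (edgeR, adjusted p = 0.000668). PHOSPHO1, the phosphatase of matrix vesicles, changed by -2.37 (SE 0.60), and ENPP1, which makes the mineral inhibitor pyrophosphate, by -1.02 (SE 0.13). SLC20A1, a phosphate importer, and FAM20C, the kinase of secreted phosphoproteins, changed by -0.40 (SE 0.09) and -0.47 (SE 0.12), the latter not being called without affected replicates 3 and 5.

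Osteocytes are osteoblasts buried in bone, and 4 of the 5 tested genes of their list fell. Lists share some genes, and a shared gene counts in each list that holds it. PHEX is also in the osteoblast list, DMP1 among the phosphoproteins, FAM20C in the mineralisation list and SOST among the Wnt antagonists. PHEX, a peptidase that limits mineral-binding peptides, averaged 198 ± 40.5 (SD, n = 5) CPM in the controls and 22.1 ± 9.37 CPM (SD, n = 5) in MPS VII, with a log2 fold change of -3.16 (SE 0.36) (edgeR, adjusted p = 3.64e-06). SOST, the Wnt inhibitor sclerostin, was low, at 8.47, 1.92, 2.04, 21.8 and 3.20 CPM against 0.275, 0.190, 0.558, 0.106 and 0.388 CPM. Control replicate 4 was far above the other controls, and the log2 fold change of -4.61 (SE 0.86) (edgeR, adjusted p = 0.000601) ranged from -5.25 to -2.98 over the alternatives.

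Hypertrophic cartilage genes were lower in MPS VII. Of 12 tested genes of its list of 16, 8 fell, 0 rose and 4 did not pass, with a median of -1.73. RUNX2, ALPL and MEF2C, which the osteoblast list also holds, and SPP1, given above, are among those that fell. COL10A1 at chr12:71801379-71809983, type X collagen, which marks the hypertrophic zone, was at 15905, 12978, 20868, 13412 and 11445 CPM in the controls and 636, 361, 889, 989 and 668 CPM in the affected libraries. The log2 fold change was -4.40 (SE 0.59) (edgeR, adjusted p = 2.05e-05), and it stayed between -4.54 and -4.23 over the alternatives.

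MMP13 at chr5:28853642-28864897, the collagenase of terminal hypertrophic cells and osteoblasts, was at 4005, 2459, 2826, 4633 and 2896 CPM against 310.0, 341, 597, 238 and 278 CPM. Affected replicate 3 was the highest of its group and still below every control. Its log2 fold change was -3.25 (SE 0.27) (edgeR, adjusted p = 2.17e-08). VEGFA, the vessel-recruiting factor that hypertrophic cells release, was at 76.5, 74.6, 98.8, 77.0 and 82.2 CPM in the controls and 80.7, 75.3, 74.6, 66.6 and 78.3 CPM in MPS VII, with a log2 fold change of -0.12 (SE 0.18) that did not pass (edgeR, adjusted p = 0.688).

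**Figure D1:**
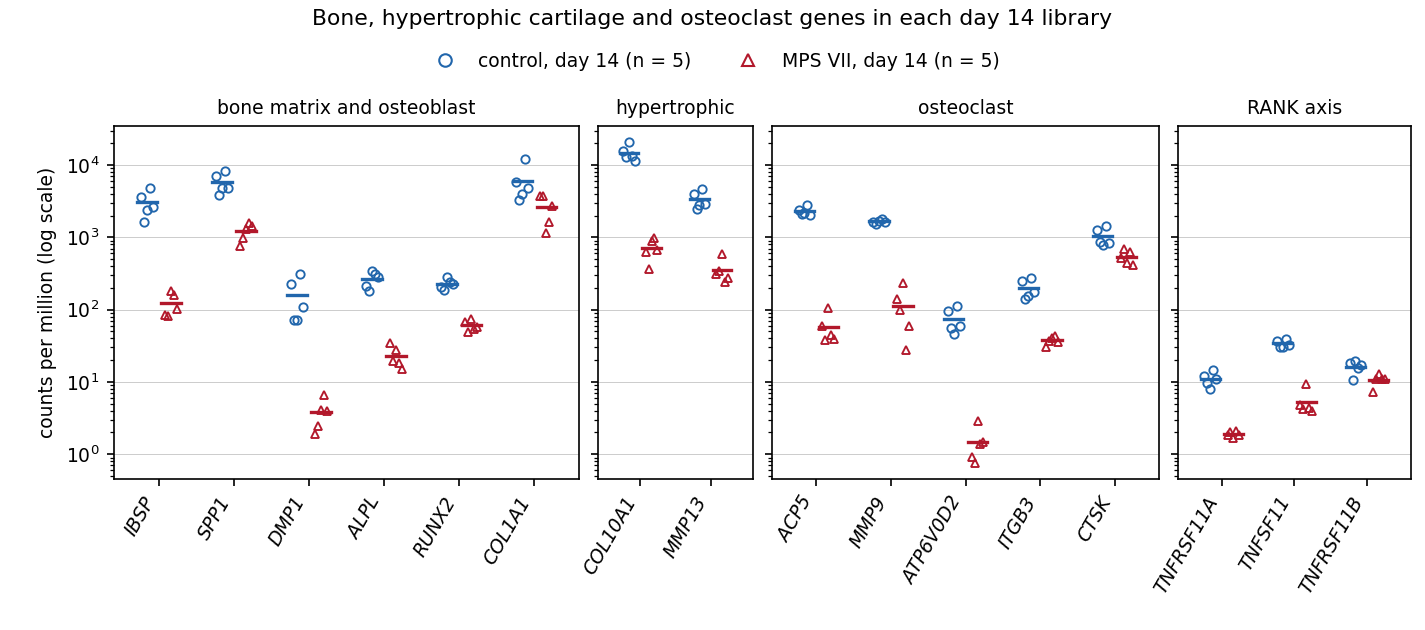
Normalised CPM on a log axis for bone, hypertrophic cartilage and osteoclast genes in the 5 control (circles) and 5 MPS VII (triangles) libraries of day 14, with horizontal bars at the group means. The groups are apart for IBSP, SPP1, DMP1, ALPL, RUNX2, COL10A1, MMP13, ACP5, MMP9, ATP6V0D2 and ITGB3, and overlap for COL1A1 and TNFRSF11B.

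Osteoclasts, the multinucleate cells that resorb cartilage and bone, gave the largest count of any bone list. Of 14 tested genes of 18, 12 fell, 0 rose and 2 did not pass, with a median log2 fold change of -3.21. The list summed to 4958 to 6775 CPM in the controls and 707 to 1023 CPM in the affected libraries.

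ACP5 at chr20:49813686-49817040, tartrate-resistant acid phosphatase, was at 2399, 2077, 2151, 2816.9 and 2073 CPM in the controls and 59.7, 38.4, 107, 44.0 and 39.2 CPM in the affected libraries. It was 39.97-fold lower (log2 fold change -5.32 (SE 0.42), edgeR, adjusted p = 2.56e-08). MMP9 at chr24:33273918-33281411, a gelatinase of osteoclasts that neutrophils also carry, was at 1657, 1516, 1707, 1785 and 1653 CPM against 139.8, 99.9, 236, 28.1 and 59.9 CPM. Its log2 fold change was -3.88 (SE 0.53) (edgeR, adjusted p = 2.96e-05). Of 13 listed neutrophil genes 9 were tested, MMP9 among them. The other 8 summed to 41.3 to 90.9 CPM in the controls and 25.5 to 62.9 CPM in MPS VII, with 0 of the 8 called. The part of neutrophils in the MMP9 values was not tested.

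Genes of fusion and acid secretion fell. ATP6V0D2 at chr29:32336302-32380452, the osteoclast form of a proton pump subunit, was at 96.3, 56.6, 46.4, 114 and 59.96 CPM in the controls and 0.918, 0.762, 2.85, 1.38 and 1.45 CPM in MPS VII (log2 fold change -5.68 (SE 0.40), edgeR, adjusted p = 1.17e-08). DCSTAMP at chr13:5552100-5559286 and OCSTAMP, membrane proteins needed for osteoclast fusion, changed by -5.52 (SE 0.58) and -4.96 (SE 0.63), from control means of 3.96 and 4.55 CPM. SLC9B2, a sodium-proton exchanger of osteoclasts, changed by -4.04 (SE 0.31).

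Other parts of the machinery fell less. ITGB3, the beta chain of the integrin that anchors osteoclasts to bone, changed by -2.41 (SE 0.20) (edgeR, adjusted p = 2.38e-08). TCIRG1, another proton pump subunit, changed by -1.36 (SE 0.19), and CA2, carbonic anhydrase, which supplies the protons, by -1.10 (SE 0.27). CTSK, the collagen-degrading cathepsin, was at 1258, 866, 788, 1425 and 827 CPM in the controls and 523, 697, 439, 623 and 415 CPM in MPS VII. Its log2 fold change of -0.94 (SE 0.23) passed (edgeR, adjusted p = 0.0045) but was not called without control replicates 1 and 4. NFATC1, the master factor of osteoclast formation, gave -0.29 (SE 0.13) and did not pass (edgeR, adjusted p = 0.115).

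Of the 6 tested genes that regulate osteoclast formation 4 fell and 1 rose. TNFSF11 at chr22:8226921-8258167, RANKL, the ligand that osteoblast-lineage cells and hypertrophic chondrocytes present, was at 37.4, 30.8, 30.5, 39.7 and 32.9 CPM in the controls and 4.82, 4.19, 9.26, 4.34 and 3.98 CPM in the affected libraries (log2 fold change -2.69 (SE 0.25), edgeR, adjusted p = 1.21e-07). TNFRSF11A at chr1:14504629-14556031, its receptor RANK on the precursors, was at 11.98, 9.75, 7.88, 14.8 and 11.0 CPM against 1.84, 2.05, 1.67, 2.12 and 1.84 CPM (log2 fold change -2.54 (SE 0.24), edgeR, adjusted p = 1.61e-07). The affected libraries lay below every control for both genes.

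TNFRSF11B, the decoy receptor osteoprotegerin, was at 18.1, 10.6, 19.4, 15.5 and 16.9 CPM and 7.25, 10.9, 12.7, 11.0 and 10.9 CPM and did not pass (log2 fold change -0.61 (SE 0.24), edgeR, adjusted p = 0.0736). It passed in 4 of the 18 alternatives, DESeq2's Wald test among them. CSF1, the growth factor of the macrophage and osteoclast lineage, changed by -1.29 (SE 0.19), and its receptor CSF1R by -1.96 (SE 0.21). IL34, the second ligand of CSF1R, rose by 0.87 (SE 0.18).

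Wnt signals drive osteoblast formation, and secreted antagonists hold them in check. The antagonist list split: of 12 tested genes 3 fell, 3 rose and 6 did not pass. WIF1 at chr10:7659241-7726642, a Wnt-binding inhibitor, was at 293, 176, 245, 371 and 255 CPM in the controls and 3.86, 4.85, 6.47, 9.43 and 4.07 CPM in the affected libraries. The fall was 46.8-fold (log2 fold change -5.55 (SE 0.61), edgeR, adjusted p = 2.53e-06). DKK2, an LRP5/6 inhibitor of the bone lineage, changed by -3.13 (SE 0.67) from a control mean of 2.89 CPM, and SOST also fell, as given above.

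SFRP5 at chr28:10994930-10999541, a decoy for Wnt ligands, moved the other way, from 9.15, 10.4, 9.13, 6.70 and 14.1 CPM in the controls to 60.6, 50.9, 48.0, 66.4 and 41.2 CPM in the affected libraries. The lowest affected library was above the highest control (log2 fold change 2.43 (SE 0.22), edgeR, adjusted p = 1.47e-07). DKK3, a divergent member of the Dickkopf family, rose by 1.87 (SE 0.30) (edgeR, adjusted p = 0.000108).

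Among 14 tested Wnt receptors, 2 fell, 3 rose and 9 did not pass, where 10.7% of all tested genes were called lower and 11.3% higher. LRP4 at chr18:42616367-42665127, the receptor that presents sclerostin, was at 50.04, 29.1, 36.2, 61.5 and 36.1 CPM against 7.30, 7.42, 4.52, 6.73 and 6.01 CPM, with the smallest adjusted p of the list (log2 fold change -2.73 (SE 0.19), edgeR, adjusted p = 4.73e-09). LGR6, a receptor for R-spondins, changed by -2.61 (SE 0.43), and ROR2, a receptor of the non-canonical branch, by 0.85 (SE 0.17).

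Of 4 tested Wnt ligands, 1 passed: WNT4, at a control mean of 1.33 CPM, fell by 2.88 (SE 0.74) on the log2 scale. Of 15 tested targets and effectors 5 fell and 2 rose, with 3 lower when control replicate 1 or 4 or affected replicate 1, 2 or 4 was left out, and 2 without control replicates 1 and 4. The nuclear partners of beta-catenin TCF7 and LEF1 changed by -2.44 (SE 0.46) and -0.95 (SE 0.20). RSPO2, an R-spondin that amplifies Wnt signals, rose by 1.67 (SE 0.36). AXIN2, the usual feedback target of the canonical branch, was at 10.4, 10.6, 11.3, 10.1 and 10.2 CPM and 11.8, 12.7, 11.5, 15.3 and 13.24 CPM and did not pass (log2 fold change 0.29 (SE 0.13), edgeR, adjusted p = 0.127). Every affected library was nonetheless above every control for AXIN2. CTNNB1, beta-catenin itself, passed narrowly at -0.45 (SE 0.15) (edgeR, adjusted p = 0.0405) and was not called in 10 of the 18 alternatives.

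**Figure D2:**
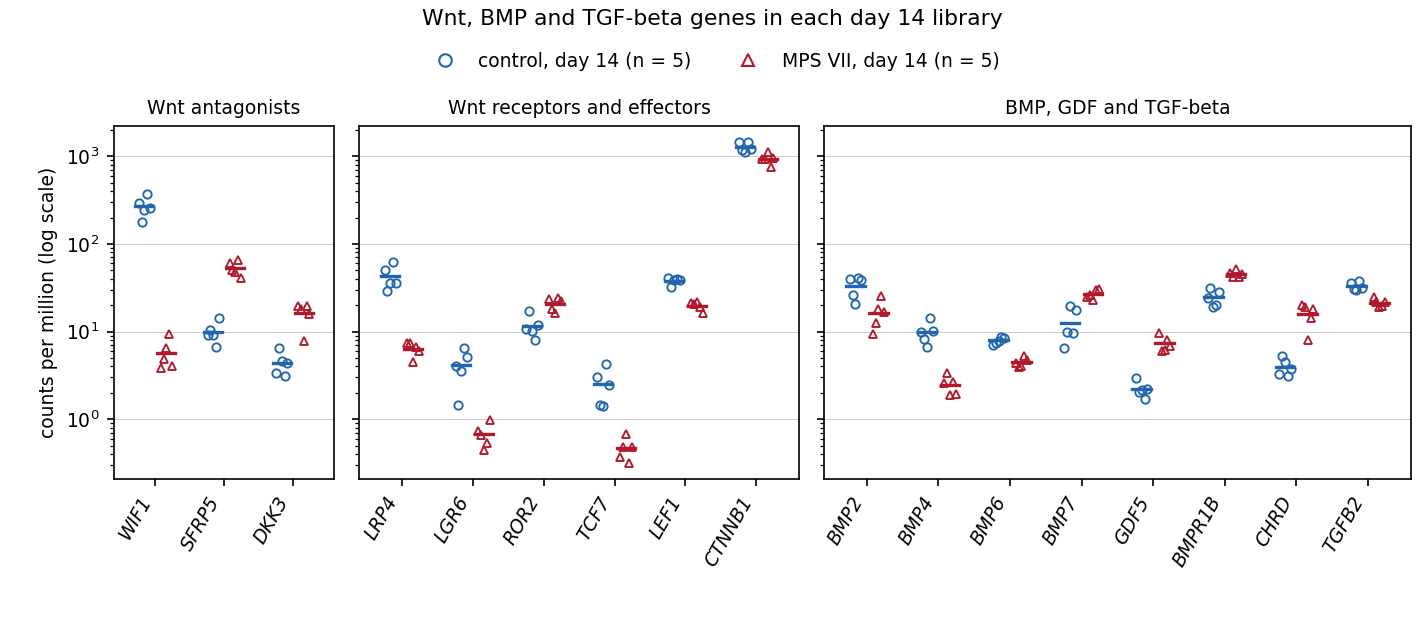
Normalised CPM on a log axis for Wnt, BMP and TGF-beta genes in each day 14 library, controls as circles and MPS VII as triangles, with bars at the group means. WIF1, LRP4, LGR6, TCF7, LEF1, BMP4, BMP6 and TGFB2 lie lower in every affected library and SFRP5, DKK3, BMP7, GDF5, BMPR1B and CHRD higher, while ROR2, CTNNB1 and BMP2 overlap.

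Bone morphogenetic proteins (BMPs) induce cartilage and bone. Of their 12 tested ligands and receptors 3 fell and 5 rose. BMP2 and BMP4, inducers of chondrocyte hypertrophy and osteoblasts, changed by -1.02 (SE 0.31) and -1.98 (SE 0.46) (edgeR, adjusted p = 0.0211 and 0.00372). The BMP2 call was lost without control replicate 4, without affected replicate 1, without affected replicate 2, and without control replicates 1 and 4 together. BMP6, a ligand of hypertrophic cells, changed by -0.82 (SE 0.20). Without control replicates 1 and 4, 3 of the 5 rises were called, BMP7 not among them.

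BMP7 rose by 1.09 (SE 0.26), a call not made without control replicates 1 and 4, and GDF5, a ligand of joint and articular cartilage, by 1.73 (SE 0.25). GDF10 at chr4:35008153-35018160, the ligand also called BMP3b, was at 0.484, 0.769, 0.680, 0.656 and 0.432 CPM in the controls and 9.64, 8.57, 4.46, 24.2 and 6.93 CPM in MPS VII, where replicate 4 was the highest. Its log2 fold change was 4.15 (SE 0.96) (edgeR, adjusted p = 0.0039). The receptor BMPR1B rose by 0.88 (SE 0.14). Of 12 tested antagonists and targets, 4 rose and 1 fell, with 2 higher without control replicates 1 and 4. CHRD, chordin, which sequesters BMPs, rose by 2.01 (SE 0.27), and BAMBI, a pseudoreceptor, fell by 0.71 (SE 0.15) on the log2 scale.

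In the TGF-beta list 3 of 10 rose and 2 fell, TGFB2 among the latter at -0.63 (SE 0.13). In the hedgehog and PTHrP list 2 of 9 rose and 1 fell. Over all tested genes 11.3% were called higher and 10.7% lower, and these lists are short. The transducer SMO and the factor GLI2 rose by 0.43 (SE 0.11) and 0.80 (SE 0.21), calls not made without control replicates 1 and 4. PTCH1, the receptor and target of the pathway, changed by -0.53 (SE 0.17), and its call was lost in 5 alternatives. Of 13 tested genes of the FGF list 2 fell and 11 did not pass, a count near the 10.7% of all tested genes. The 2 are feedback inhibitors that receptor signalling induces: DUSP6 fell by 0.90 (SE 0.12) and SPRY1 fell by 1.26 (SE 0.22) on the log2 scale. IGF2, a growth factor of fetal tissue, rose by 0.99 (SE 0.25), again not called without control replicates 1 and 4.

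The cartilage matrix list held rises and no falls. Of 16 tested genes, 5 rose, 0 fell and 11 did not pass, with a median of 0.58. The count was 3 without control replicates 1 and 4 and 9 without replicate 3 of the affected day 9 group. Its main members did not pass: COL2A1 at 80690.2, 164675, 238239, 104358 and 184298 CPM in the controls and 284596, 224258, 143228, 217187 and 186192 CPM in MPS VII gave 0.45 (SE 0.38) (edgeR, adjusted p = 0.443). ACAN, aggrecan, gave 0.38 (SE 0.26) (edgeR, adjusted p = 0.319).

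MATN1 at chr2:70225456-70234420, matrilin 1, a matrix protein of resting and proliferating cartilage, was at 233, 256, 121, 119 and 230.3 CPM in the controls and 2487, 1260.0, 934, 2060.3 and 1043 CPM in the affected libraries. The ranges were far apart, with a log2 fold change of 3.02 (SE 0.29) (edgeR, adjusted p = 2.14e-07). CNMD, chondromodulin, which keeps vessels out of cartilage, averaged 1660.0 ± 335 (SD, n = 5) CPM in the controls and 3632 ± 327 CPM (SD, n = 5) in MPS VII (log2 fold change 1.13 (SE 0.17), edgeR, adjusted p = 5.05e-05). EPYC, epiphycan, rose by 2.54 (SE 0.50), COMP by 0.91 (SE 0.24) and COL9A2 by 0.92 (SE 0.28). The COMP and COL9A2 calls were not made without control replicates 1 and 4, and that of COL9A2 was also lost without control replicate 1 or 4 or affected replicate 1.

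Of 10 tested chondrocyte factors 6 rose and 0 fell, with a median of 0.77. The SOX partners of the chondrocyte programme, SOX5 and SOX6, rose by 0.80 (SE 0.15) and 0.78 (SE 0.15) (edgeR, adjusted p = 0.000491 and 0.000559). NKX3-2, a repressor of RUNX2 and hypertrophy, was at 25.8, 34.2, 24.7, 17.7 and 23.9 CPM in the controls and 62.7, 48.8, 38.7, 60.6 and 50.7 CPM in MPS VII. The groups did not overlap (log2 fold change 1.05 (SE 0.16), edgeR, adjusted p = 6.78e-05). Beside these rises, the cartilage matrix list summed to 140126 to 317892 CPM in the controls and 237980.04 to 399019.6 CPM in the affected libraries, and the part of a larger share of cartilage RNA was not tested.

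Genes that build and cut glycosaminoglycan chains were split. Of 28 tested synthesis genes, 4 rose, 8 fell and 16 did not pass, with 9 higher without replicate 3 of the affected day 9 group. SULF2 at chr24:34732924-34828569, a sulfatase that edits heparan sulfate outside the cell, was at 38.5, 52.3, 35.6, 27.6 and 43.0 CPM in the controls and 295, 303, 167, 286 and 176 CPM in MPS VII (log2 fold change 2.64 (SE 0.25), edgeR, adjusted p = 1.79e-07). XYLT1, which adds the first sugar of a chain, rose by 1.11 (SE 0.24). EXT1, a heparan sulfate polymerase, changed by -0.66 (SE 0.10), CHSY1, a chondroitin polymerase, by -0.85 (SE 0.14), and the sulfotransferase UST by -1.42 (SE 0.25).

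Among 18 tested cell surface and small proteoglycans, 8 rose and 1 fell. The 1 that fell was GPC4, a glypican of the cell surface, from 138, 96.0, 96.9, 168 and 139.5 CPM to 20.1, 22.4, 25.7, 21.3 and 17.3 CPM (log2 fold change -2.58 (SE 0.25), edgeR, adjusted p = 2.56e-07). SDC4, a syndecan, rose by 1.43 (SE 0.16). The small proteoglycans OGN and ASPN rose by 1.49 (SE 0.41) and 2.16 (SE 0.67), where control replicates 1 and 2 were the high controls, and neither was called without control replicates 1 and 4. The ASPN call was also lost with no low-count filter and without control replicate 3, 4 or 5 or affected replicate 4 (edgeR, adjusted p = 0.056 to 0.0685). In the fit without control replicates 1 and 4, 2 of the 18 were called higher, against 5 without control replicate 1 alone and 4 without control replicate 4 alone.

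Matrix proteases and their inhibitors included 8 falls and 3 rises among 22 tested genes. MMP1 at chr5:28978383-28986863, an interstitial collagenase, was at 42.3, 37.4, 37.8, 47.8 and 34.5 CPM in the controls and 1.42, 1.14, 2.23, 0.742 and 0.776 CPM in MPS VII (log2 fold change -4.99 (SE 0.55), edgeR, adjusted p = 2.6e-06). MMP12, the elastase of macrophages, was at 5.40, 3.75, 6.69, 9.56 and 4.58 CPM against 38.0, 54.8, 27.6, 57.8 and 22.0 CPM (log2 fold change 2.74 (SE 0.30), edgeR, adjusted p = 1.61e-06). The gene span of MMP12 at chr5:28918694-28933474 lies between MMP13 and MMP1 on chromosome 5, and MMP12 rose while those 2 fell. TIMP1 and TIMP2, inhibitors of these enzymes, moved in opposite directions, by -1.53 (SE 0.17) and 1.86 (SE 0.17).

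More lysosomal hydrolase genes rose than fell. Of 15 tested proteases and lipases, 11 rose and 1 (CTSK) fell, with a median of 0.84. CTSS, cathepsin S of macrophages, was at 60.8, 61.5, 60.6, 61.6 and 50.9 CPM in the controls and 155, 231, 157, 159.8 and 108 CPM in MPS VII (log2 fold change 1.46 (SE 0.15), edgeR, adjusted p = 4.7e-07). Every affected library was above every control. CTSB, a cathepsin of nearly all cells, rose by 1.18 (SE 0.16), ASAH1, acid ceramidase, by 1.40 (SE 0.18), LIPA, lysosomal lipase, by 1.39 (SE 0.19) and NPC2, a cholesterol carrier, by 1.14 (SE 0.19).

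Of 21 tested glycosidases and sulfatases, GUSB among them, 8 rose and 1 fell, with a median of 0.33, and 5 were called higher without affected replicate 1 or 2. SGSH, the heparan sulfate sulfamidase, was at 12.6, 18.3, 21.5, 14.9 and 19.9 CPM in the controls and 56.4, 53.3, 32.0, 73.7 and 41.8 CPM in MPS VII, 2.95-fold higher (log2 fold change 1.56 (SE 0.18), edgeR, adjusted p = 2.57e-06). MAN2B1, alpha-mannosidase, rose by 1.06 (SE 0.16) and IDS, iduronate sulfatase, by 0.58 (SE 0.11).

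The membrane list held both directions, with 6 of 20 higher and 7 lower. GPNMB at chr14:36918913-36947518, a lysosomal glycoprotein known to rise in storage diseases, rose most of all genes that the naming rule admitted. It was at 10.4, 5.38, 4.42, 16.8 and 9.21 CPM in the controls and 743, 1124, 700.4, 896 and 611 CPM in the affected libraries, 87.8-fold higher (log2 fold change 6.46 (SE 0.40), edgeR, adjusted p = 4.73e-09). The structural proteins LAMP1 and LAMP2 rose by 0.68 (SE 0.10) and 0.87 (SE 0.09), and SCARB2, a receptor of the lysosomal membrane, by 0.94 (SE 0.09).

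The proton pump fell within the same list. ATP6V1A averaged 183 ± 51.7 (SD, n = 5) CPM in the controls and 63.0 ± 11.2 CPM (SD, n = 5) in MPS VII (log2 fold change -1.54 (SE 0.18), edgeR, adjusted p = 2.41e-06), and ATP6V1B2 changed by -0.99 (SE 0.14). Osteoclasts also carry this pump at high levels, their list fell at the same time, and its part in the pump values was not tested.

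In the list of TFEB family and autophagy genes 5 of 12 rose and 1 fell. FLCN and RRAGD, partners in nutrient signalling at the lysosome, both rose, FLCN from 15.2, 14.3, 12.02, 12.7 and 11.98 CPM to 40.9, 45.2, 37.8, 40.9 and 46.0 CPM (log2 fold change 1.67 (SE 0.12), edgeR, adjusted p = 7.49e-09) and RRAGD by 1.67 (SE 0.15). SQSTM1, a receptor for autophagic cargo, rose by 0.89 (SE 0.20). TFEB, the factor that drives lysosomal genes, gave 0.09 (SE 0.18) (edgeR, adjusted p = 0.775).

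**Figure D3:**
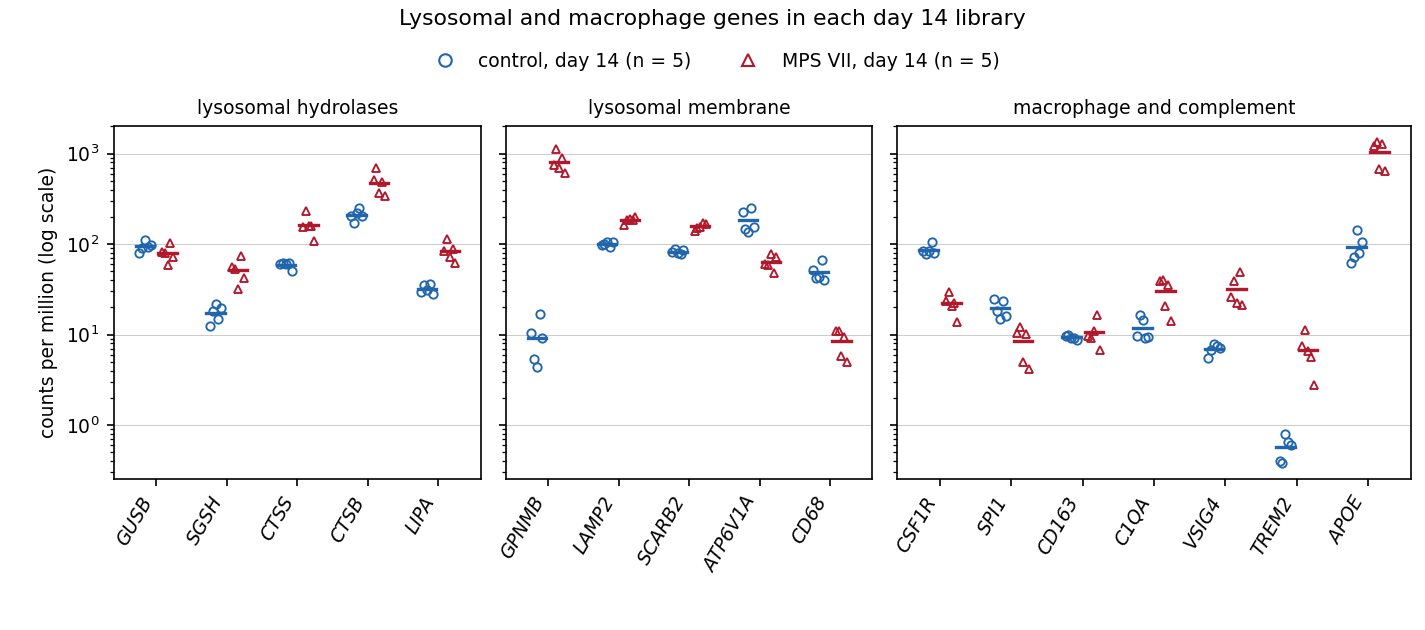
Normalised CPM on a log axis for lysosomal, macrophage and complement genes in each day 14 library, controls as circles and MPS VII as triangles, with bars at the group means. GPNMB, APOE and TREM2 are higher in all affected libraries, with log2 fold changes between the groups above 3. GUSB and CD163 overlap, and ATP6V1A, CD68, CSF1R and SPI1 are lower in all affected libraries.

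Macrophage genes did not move as one. Of 21 tested markers, 4 rose, 5 fell and 12 did not pass, with a median of 0.06, and their sum was 518 to 641 CPM in the controls and 346 to 547 CPM in MPS VII. CSF1R was at 83.4, 77.2, 84.2, 106 and 80.2 CPM in the controls and 23.7, 29.9, 20.9, 22.3 and 13.9 CPM in the affected libraries (log2 fold change -1.96 (SE 0.21), edgeR, adjusted p = 1.16e-06). CD68, a lysosomal glycoprotein of macrophages and osteoclasts, changed by -2.52 (SE 0.27), and SPI1, the lineage factor PU.1, by -1.21 (SE 0.30), a call not made without control replicates 1 and 4, where 2 of the 21 were called lower. The resident macrophage receptor CD163 was at 9.68, 9.80, 9.24, 9.24 and 8.65 CPM and 9.64, 9.23, 10.9, 16.3 and 6.79 CPM and did not pass (log2 fold change 0.18 (SE 0.25), edgeR, adjusted p = 0.66).

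VSIG4, a complement receptor of macrophages, was at 5.56, 6.73, 7.83, 7.50 and 7.09 CPM in the controls and 25.8, 39.3, 22.5, 49.6 and 21.3 CPM in MPS VII (log2 fold change 2.19 (SE 0.28), edgeR, adjusted p = 8.61e-06). FCER1G, a signalling chain of Fc receptors, rose by 1.03 (SE 0.19) and C1QA, a chain of complement C1q, by 1.35 (SE 0.27). Affected replicate 5 was the lowest affected library for each of these 3 genes.

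Of 15 tested genes of the lipid-associated macrophage list, 6 rose, 2 fell, SPP1 among them, and 7 did not pass. The median was 0.08, and the list summed to 4812 to 9437 CPM in the controls and 3681 to 4991 CPM in MPS VII. TREM2 at chr12:9914891-9920655, a lipid-sensing receptor, was at 0.403, 0.384, 0.794, 0.656 and 0.605 CPM in the controls and 7.58, 11.3, 6.64, 5.72 and 2.81 CPM in MPS VII (log2 fold change 3.58 (SE 0.35), edgeR, adjusted p = 2.14e-07). APOE at chr1:110525865-110527644, a lipid carrier, was at 62.4, 71.5, 142, 80.8 and 105 CPM against 1228, 1342, 672, 1288 and 641 CPM (log2 fold change 3.49 (SE 0.28), edgeR, adjusted p = 2.24e-08). All 5 affected libraries were above every control for both genes, and affected replicate 5 was the lowest of them.

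Complement genes were raised in 6 of 17 cases and lowered in 2, where 11.3% of all tested genes were called higher and 10.7% lower. The anaphylatoxin receptors C3AR1 and C5AR1 rose by 1.71 (SE 0.20) and 1.90 (SE 0.32). Of 5 tested T and NK cell genes 2 rose. CD2, an adhesion receptor of T and NK cells, was at 2.18, 3.17, 2.38, 3.75 and 2.77 CPM in the controls and 20.2, 30.5, 21.2, 18.2 and 16.2 CPM in MPS VII (log2 fold change 2.90 (SE 0.32), edgeR, adjusted p = 1.41e-06). CD3D and CD3E, which define T cells, were too low to be tested, and CD5, another T cell marker, rose by 2.40 (SE 0.71), a call that was lost without affected replicate 4 and without control replicates 1 and 4. The cytokine and chemokine list had 5 rises and 5 falls among 22 tested genes, with 2 rises without control replicate 5 and 3 without control replicate 2 or 4 or affected replicate 2 or 3, and 1 without control replicates 1 and 4. LIF, a cytokine made by bone cells, and PTGS2, cyclooxygenase-2, changed by -2.51 (SE 0.34) and -3.03 (SE 0.46).

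Cell cycle genes were lower. Of 15 tested, 11 fell, 0 rose and 4 did not pass, with a median of -0.80. CCNB1, the mitotic cyclin B1, was at 24.8, 16.6, 18.8, 24.9 and 19.8 CPM in the controls and 8.77, 11.6, 9.54, 8.74 and 11.2 CPM in MPS VII (log2 fold change -1.07 (SE 0.23), edgeR, adjusted p = 0.00191). AURKA, a mitotic kinase, changed by -0.95 (SE 0.20), and RRM2, which makes deoxynucleotides, by -1.26 (SE 0.30), a call lost without control replicates 1 and 4. CDKN1A, an inhibitor of the cycle, was also among the 11, at -0.73 (SE 0.19), a call lost without control replicates 1 and 4 and without affected replicates 3 and 5. MKI67 and TOP2A, the usual proliferation markers, gave -0.80 (SE 0.31) and -0.83 (SE 0.35) and did not pass (edgeR, adjusted p = 0.0706 and 0.101), although no affected library reached a control for either. MKI67 was called with DESeq2's Wald test, and both were called in the fit of day 14 libraries alone and without replicate 3 of the affected day 9 group. Without control replicates 1 and 4, 3 of the 15 were called lower, and 7 without affected replicates 3 and 5, without control replicate 1, without control replicate 4 or without affected replicate 4.

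Of 17 tested endothelial genes, 7 fell, 2 rose and 8 did not pass, with a median of -0.37 and a sum of 955 to 1067 CPM in the controls and 582 to 848 CPM in MPS VII. KDR, the main receptor of VEGFA, was at 175, 148, 182, 167 and 182 CPM in the controls and 85.6, 101, 105, 72.2 and 69.2 CPM in MPS VII (log2 fold change -0.98 (SE 0.17), edgeR, adjusted p = 0.000227). PLVAP, of fenestrated endothelium, changed by -1.01 (SE 0.25), CDH5, the cadherin of endothelial junctions, by -0.70 (SE 0.17) and PECAM1 by -0.37 (SE 0.10), which was not called without control replicates 1 and 4. The endothelial genes named here are all from the 7 that fell, and the 2 that rose are not named.

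Among 15 tested angiogenic and hypoxia genes 4 fell and 2 rose, where 10.7% of all tested genes were called lower and 11.3% higher. ANGPT1, a vessel-stabilising factor, was at 172, 166, 145, 152 and 148 CPM in the controls and 23.3, 22.4, 65.2, 47.0 and 44.6 CPM in MPS VII (log2 fold change -1.95 (SE 0.36), edgeR, adjusted p = 0.000627). PGF, placental growth factor, changed by -1.60 (SE 0.18) and ANGPTL4 by -2.23 (SE 0.27). CA9, a carbonic anhydrase induced by hypoxia, rose by 1.61 (SE 0.26) (edgeR, adjusted p = 0.000145).

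**Figure D4:**
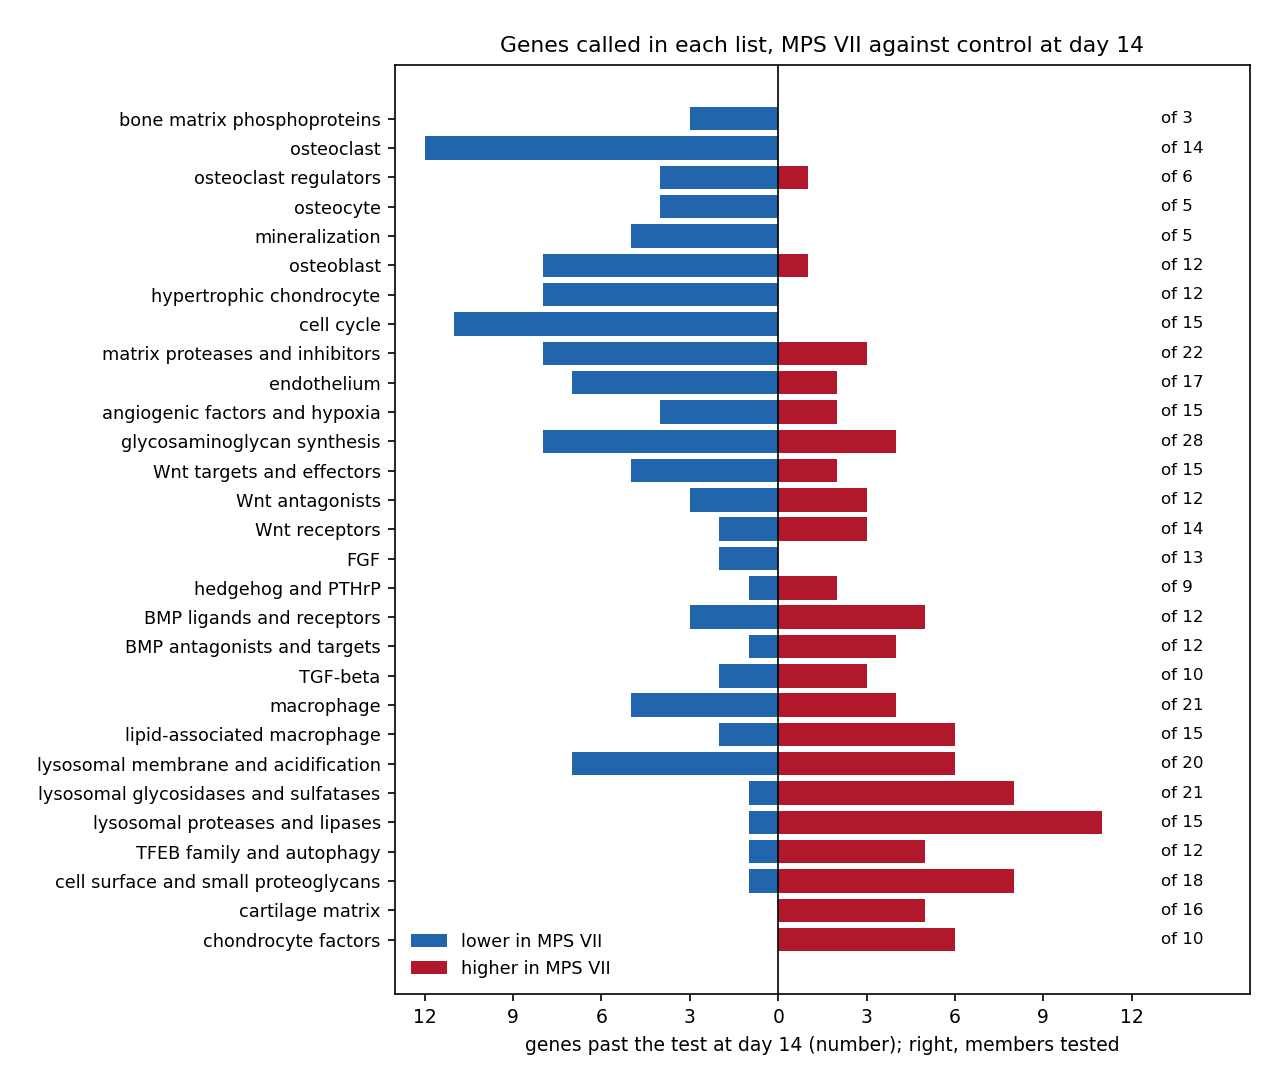
Number of genes past the test at day 14 in each gene list, lower in MPS VII to the left (blue) and higher to the right (red), with the number of members tested at the right edge. The osteoclast list has 12 of 14 lower and 0 higher, and lysosomal proteases and lipases have 11 of 15 higher. Across all tested genes 10.7% were lower and 11.3% higher.

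The 15 largest falls that the naming rule admitted included 7 genes already given: ATP6V0D2, WIF1, DCSTAMP, DMP1, DLX3, ACP5 and MMP1. The rule took called genes whose libraries did not overlap and whose higher group averaged at least 2 CPM, and 1124 lower and 1021 higher genes met it. The largest fall was SLC36A2 at chr4:57934459-57958154, a transporter of small amino acids, with 675 counts over the controls and 0 over the affected libraries. Against a floor of 3 counts over the affected group it was at least 209-fold lower, or at least 105-fold with counts halved. PDC at chr7:19498755-19514228, phosducin, known from photoreceptors, had 266 counts against 0 and was at least 82.5-fold lower, or at least 41.3-fold with counts halved.

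COL22A1 at chr13:33735489-33974004, a collagen of tissue junctions, was at 43.1, 11.6, 23.6, 109 and 31.1 CPM in the controls and 0, 0.190, 0.446, 0.318 and 0.0970 CPM in MPS VII. Control replicate 4 was the highest and replicate 2 the lowest control, and all affected libraries were under 1 CPM (log2 fold change -7.72 (SE 0.85), edgeR, adjusted p = 2.54e-06). DDX4 at chr2:43025648-43109307, an RNA helicase known from germ cells, was at 11.9, 6.20, 5.67, 11.4 and 6.18 CPM against 0, 0, 0.112, 0.106 and 0.194 CPM (log2 fold change -6.59 (SE 0.70), edgeR, adjusted p = 7.9e-07). CDH15 at chr5:64257310-64277178, M-cadherin, known from muscle precursors, was at 11.4, 5.04, 9.07, 27.2 and 10.3 CPM against 0.275, 0.0952, 0.614, 0.212 and 0 CPM (log2 fold change -5.73 (SE 0.66), edgeR, adjusted p = 2.86e-06). In each of these 5 genes control replicates 1 and 4 were the 2 highest controls.

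PLA2G10 at chr6:28574387-28591706, a secreted phospholipase A2, changed by -5.27 (SE 0.89), and WDR86 at chr16:15384335-15404037 by -5.03 (SE 0.97). A gene without a matched name at chr33:16850270-16871323 changed by -6.45 (SE 0.68), from a control mean of 2.25 CPM.

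The largest rises after GPNMB came from genes that averaged under 2 CPM in the controls. SLC1A7 at chr5:55782140-55828330, a glutamate transporter, was at 0.403, 0.769, 0.227, 0.281 and 0.346 CPM in the controls and 19.2, 23.3, 11.2, 24.5 and 12.3 CPM in the affected libraries (log2 fold change 5.45 (SE 0.39), edgeR, adjusted p = 1.03e-08). An unnamed gene whose span follows it, at chr5:55831596-55972118, was at 1.37, 1.06, 0.510, 0.422 and 0.476 CPM against 22.5, 23.2, 9.82, 21.3 and 12.3 CPM (log2 fold change 4.51 (SE 0.35)). Of the affected libraries, replicates 3 and 5 were the lowest for both genes.

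ASS1 at chr9:53425168-53472725, argininosuccinate synthase, was at 0.806, 0.288, 0.340, 0 and 1.12 CPM in the controls and 11.98, 16.3, 8.59, 54.8 and 14.8 CPM in MPS VII, where replicate 4 was the highest (log2 fold change 5.31 (SE 0.99), edgeR, adjusted p = 0.000662). COL6A6 at chr23:27759397-27899273, a type VI collagen chain, changed by 4.70 (SE 0.71), and ALDH1A1 at chr1:84940066-84994247, which makes retinoic acid, by 4.43 (SE 0.56). OTOR at chr24:6095773-6100072, otoraplin, a secreted protein of the inner ear and cartilage, was at 0.726, 0.865, 0.454, 0.188 and 0.346 CPM against 13.5, 8.85, 12.4, 7.10 and 4.99 CPM (log2 fold change 4.16 (SE 0.64), edgeR, adjusted p = 9.16e-05). IGSF11 at chr33:22640775-22766435, an adhesion molecule, averaged 1.69 ± 0.520 (SD, n = 5) CPM in the controls and 33.1 ± 8.73 CPM (SD, n = 5) in MPS VII (log2 fold change 4.27 (SE 0.39)).

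The remaining rises were LOC480601 at chr9:37734558-37740115 with a log2 fold change of 5.16 (SE 0.71), and BSPRY at chr11:67713589-67726155 with 4.64 (SE 0.58). SLC26A8 at chr12:5059199-5135818, an anion transporter, gave 4.51 (SE 0.61), SBSN at chr1:117133127-117139309, suprabasin, 4.43 (SE 0.58), and LOC481634 at chr11:58085495-58090683, a partial match, 4.35 (SE 0.34). An unnamed gene at chr25:50303570-50306441 gave 4.39 (SE 0.41) (edgeR, adjusted p = 1.92e-07). Adjusted p-values of these genes lay below that of GDF10, the weakest of the 15.

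Whether the genotype effect at day 14 differs from that at day 9 was tested directly, as the difference of the 2 effects in the fit over all 20 libraries. It passed for 474 genes (3.26%), 354 (2.43%) with a difference below 0 and 120 (0.825%) above 0. Of the 474, 368 were called at day 14 and not at day 9. The count was 224 without control replicate 1, 199 without control replicate 4, 253 without affected replicate 5 and 759 without replicate 3 of the affected day 9 group. Without replicate 2, 3, 4 or 5 of the day 9 controls it was 248, 308, 276 and 263, and it was 47 without control replicates 1 and 4 together.

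A difference below 0 passed for 3 of 12 osteoblast, 2 of 5 osteocyte, 4 of 12 hypertrophic and 0 of 5 mineralisation genes (edgeR), with shared genes counted in each list. Of those 5, 2 had an unadjusted p under 0.05 and 1 passed with DESeq2's Wald test. ALPL, PHEX, SP7 and PHOSPHO1 did not pass (edgeR, adjusted p = 0.157, 0.21, 0.307 and 0.675). IBSP went from -1.63 (SE 0.31) at day 9 to -4.64 (SE 0.35) at day 14, a difference of -3.01 (SE 0.43) (edgeR, adjusted p = 0.00105). SPP1 gave 0.22 (SE 0.27) at day 9, which did not pass, and its difference was -2.47 (SE 0.39) (edgeR, adjusted p = 0.00169). DMP1 gave 1.39 (SE 0.75) at day 9, which did not pass either, and a difference of -6.77 (SE 1.12) (edgeR, adjusted p = 0.00402).

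DLX3, which was not called at day 9, differed between the ages by -5.86 (SE 0.85) (edgeR, adjusted p = 0.00117). COL10A1 differed by -3.39 (SE 0.75) and MMP13 by -1.50 (SE 0.35) (edgeR, adjusted p = 0.0183 and 0.0204). WIF1 gave -0.26 (SE 0.52) at day 9, a difference of -5.29 (SE 0.77) (edgeR, adjusted p = 0.00131). LRP4 had the smallest adjusted p among the named genes, with -0.36 (SE 0.18) at day 9 and a difference of -2.37 (SE 0.25) (edgeR, adjusted p = 3.48e-05).

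The osteoclast list was mixed. At day 9, 8 of its 14 genes were already lower and 1 higher, with a median of -1.27. ACP5 was -3.81 (SE 0.39) at day 9 (edgeR, adjusted p = 1.61e-06) and its difference of -1.51 (SE 0.50) did not pass (edgeR, adjusted p = 0.0967). MMP9 was -3.57 (SE 0.53) at day 9, with a difference of -0.31 (SE 0.67) (edgeR, adjusted p = 0.862). ATP6V0D2, ITGB3 and TNFRSF11A did differ, by -2.90 (SE 0.52), -1.78 (SE 0.27) and -1.94 (SE 0.33) (edgeR, adjusted p = 0.00663, 0.0012 and 0.00402).

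Several lysosomal and macrophage genes had a smaller excess at day 14. CTSS was 2.42 (SE 0.16) at day 9 and 1.46 (SE 0.15) at day 14, a difference of -0.97 (SE 0.21) (edgeR, adjusted p = 0.0157). LIPA differed by -1.06 (SE 0.26), NPC2 by -1.24 (SE 0.27) and FCER1G by -1.30 (SE 0.27) (edgeR, adjusted p = 0.0318, 0.0136 and 0.0116). GPNMB, at 7.05 (SE 0.42) on day 9, gave a difference of -0.59 (SE 0.48) (edgeR, adjusted p = 0.549). The macrophage list had 10 genes higher and 1 lower of 21 at day 9, against 4 and 5 at day 14, and the difference itself passed below 0 for 6. Of the cartilage matrix list 1 gene of 16 passed above 0, MATN1 at 2.02 (SE 0.39), and of the chondrocyte factors 2 of 10, SOX5 at 1.02 (SE 0.21) and SFRP5 at 1.22 (SE 0.30) (edgeR, adjusted p = 0.00763, 0.0112 and 0.0303).

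**Figure D5:**
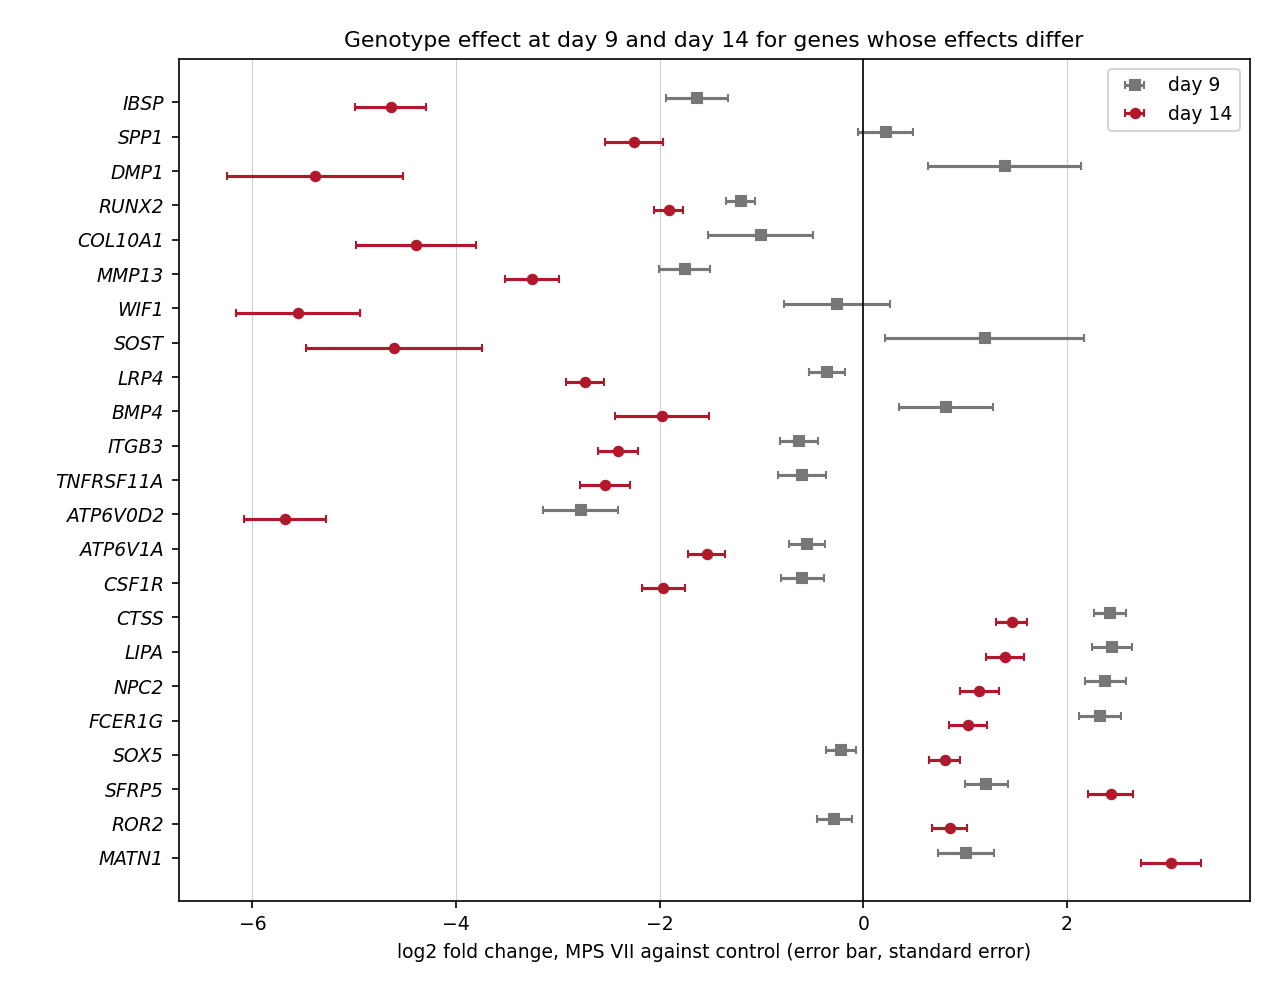
Log2 fold changes of MPS VII against control at day 9 (grey squares) and day 14 (red circles) with standard errors, for 23 genes whose 2 effects differed by the test. The genes from IBSP down to CSF1R lie lower at day 14 than at day 9, CTSS, LIPA, NPC2 and FCER1G lie nearer to 0, and SOX5, SFRP5, ROR2 and MATN1 lie higher.

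Of the 48 named genes that passed this test, 12 passed it in all 26 alternatives in which it was run: IBSP, SPP1, DMP1, DLX3, WIF1, LRP4, ITGB3, TNFRSF11A, ATP6V0D2, GPC4, COL22A1 and SLC36A2. The sign of the difference was the same in every alternative for all 48. Day 9 and day 14 libraries came from different dogs and also differed in depth, at 21419930 to 28028365 and 15772761 to 22471728 counts per library.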

How the data were processed

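RNA of T12 epiphyseal cartilage was sequenced as stranded, paired 100-base mRNA libraries from 20 dogs, per the labels' protocols. The table holds raw read counts per Ensembl gene, deposited for 24580 genes with CanFam3.1 positions, per the file headers. STAR 2.4.0j, HTSeq, edgeR, bcl2fastq and CASAVA 1.8.2 appear in the submitters' processing notes without roles. How strand and shared reads were handled in counting is not given in the sources used here, and values of genes that overlap or have close copies are uncertain for that reason. Each count column matched 1 sample. Day 14 libraries held 15772761 to 22471728 counts. Of nonzero counts under 200, 65.2% to 74.8% were even, as when both mates are counted, so fits were repeated on halved counts; counting-error bounds cover counting error only.

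Counts were tested in edgeR 4.0.16 (R 4.3.3): filterByExpr over 4 groups (14550 genes kept, 10030 dropped with 0.0413% of counts), TMM scaling, and a robust quasi-likelihood fit of 1 mean per group over all 20 libraries, with Benjamini-Hochberg adjustment over all tested genes and a threshold of 0.05. A gene high in 1 group passes the filter through that group. A standard error is the absolute log2 fold change over the root of the F statistic. CPM use TMM-scaled library sizes. The biological coefficient of variation was 0.239. Tested on simulated data for this comparison (14371 genes), the fit found 26.2% of 1.5-fold, 77.6% of 2-fold and 98.5% of 4-fold changes, with 5 false calls. The simulation changed 65, 67 and 68 genes by these folds, far fewer than the 3202 called in the data. The adjusted p depends on that share, so the rates may not hold for the real data.

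Symbols came from collinear matching of gene spans; 16213 of all genes (66.0%) received one, with a median overlap of 0.872, and 22.4% did when genes were displaced by 300 kb. Reference coordinates served this matching alone and are not printed. Named genes were the 15 largest falls and rises that were called, did not overlap between groups and had a mean of 2 CPM or more in the higher group. To these were added, of each gene list, at most 6 called members by smallest p and its best-known members, and some of these genes are not reported here. The comparison and the 53 gene lists were chosen with earlier results of these data known. No pair of libraries of a day 14 group was alike within sampling noise (chi-square per gene 17.7 to 163). Alternatives were DESeq2 1.42.0, median-ratio scaling, no filter, day 14 libraries alone, halved counts and leaving out libraries; leaving out pairs of libraries, leaving out day 9 libraries other than affected replicate 3 (for the difference between ages alone) and using close name matches alone were chosen after seeing the data.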

Additional observations from a re-analysis of the deposited data

Results flagged for a closer look

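The difference between the genotype effects at day 14 and day 9 (log2, day 14 minus day 9) passed edgeR's quasi-likelihood test for 48 of the 161 named genes. Over all tested genes 3.26% passed. The named genes were chosen in part by their day 14 effect, which is a term of this difference, so the 2 shares cannot be compared. In bone and hypertrophic genes the difference was -3.01 for IBSP, -2.47 for SPP1, -6.77 for DMP1, -5.86 for DLX3, -0.71 for RUNX2, -5.80 for SOST, -3.39 for COL10A1 and -1.50 for MMP13, each effect being lower at day 14. In osteoclast and lineage genes it was -2.90 for ATP6V0D2, -1.99 for SLC9B2, -1.78 for ITGB3, -1.94 for TNFRSF11A, -1.01 for TCIRG1, -0.98 for ATP6V1A, -1.01 for ATP6V1B2, -1.41 for CSF1 and -1.36 for CSF1R.

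In Wnt and growth factor genes it was -5.29 for WIF1, -2.37 for LRP4, -2.19 for LGR6, -1.04 for LEF1, -2.79 for BMP4, -0.89 for TGFB2, -0.67 for DUSP6, -1.14 for SPRY1 and -1.08 for PGF. It was above 0 for SFRP5 at 1.22, ROR2 at 1.13, BMPR1B at 0.75 and SMO at 0.65. Matrix, proteoglycan and glycosaminoglycan genes gave -1.98 for GPC4, -0.50 for EXT1, -1.55 for UST and -1.04 for TIMP1, and a value above 0 for MATN1 at 2.02. The chondrocyte factor SOX5 gave 1.02, and CA9, of the angiogenic and hypoxia genes, gave 1.38.

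Lysosomal and immune genes gave -0.97 for CTSS, -1.06 for LIPA, -1.24 for NPC2, -1.30 for FCER1G and -2.88 for PTGS2, and CDKN1A, a cell cycle inhibitor, gave -1.33. Among the largest day 14 changes, the difference was -8.93 for COL22A1, -5.39 for CDH15, 1.86 for SLC1A7 and 1.84 for IGSF11. The fitted -11.64 for SLC36A2 rests on an affected group with 0 counts, so its size depends on the fit and is no bound. Without control replicates 1 and 4, 12 of the 48 passed, without affected replicates 3 and 5, 30, and with DESeq2's Wald test 48.

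In 18 gene and group pairs of 322 examined, 1 library lay far from the other 4 of its group by Dixon's test. Chance flags about 1 of 20 groups, which over 322 gives about as many as the 18 found. The entries below are therefore listed as values only. Affected replicate 3 stood apart in 7: it was high for MMP13 (597 CPM, the others 238 to 341), MEF2C (122, others 72.3 to 80.0), TNFSF11 (9.26, others 3.98 to 4.82), BAMBI (58.3, others 49.1 to 51.4) and DKK2 (0.781, others 0.0970 to 0.286), and was the only affected library with counts of PLA2G10 (0.335). It was low for NFATC1 (22.9, others 34.5 to 39.2).

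Affected replicate 4 stood apart in 5. It was high for ASS1 (54.8 CPM, others 8.59 to 16.3), GDF10 (24.2, others 4.46 to 9.64) and CD5 (6.46, others 0.391 to 1.84), low for RRM2 (9.11, others 15.1 to 16.02), and the only one with counts of the unnamed gene on chromosome 33 (0.106). Control replicate 4 was high for CDH15 (27.2 CPM, others 5.04 to 11.4) and CSF1R (106, others 77.2 to 84.2), and control replicate 3 for CDH5 (58.4, others 48.9 to 50.3) and TFEB (13.04, others 8.60 to 9.66). Control replicate 2 was high for COL6A6 (0.624, others 0 to 0.113), and control replicate 5 was low for CTSS (50.9, others 60.6 to 61.6).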

How the results depend on the processing

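Over most settings tried the number of genes called at day 14 stayed within 1.5 times the 3202 reported, from 2448 to 4382 when 1 day 14 library or replicate 3 of the affected day 9 group was left out. The exception was the added fit without control replicates 1 and 4, with 1638. The number of genes whose effects differed between ages, 474, was 932 with DESeq2's Wald test, 243 without affected replicates 3 and 5, 47 without control replicates 1 and 4, and 199 to 759 when 1 of the 20 libraries was left out. The cause was not tested. Of 148 named genes called at day 14, 125 were called in all 18 alternatives, 20 were lost in at least 1, and 0 reversed. The other 3 were called wherever tested, but ASS1 and GDF10 had no adjusted p in DESeq2 and PDC none on halved counts. Of the 13 not called, 4 were called in at least 1. The named genes were chosen in part by their values in the main fit, so these counts do not give the share kept among all called genes. Among lists, close name matches alone left 4 of the 8 osteoblast genes and 5 of the 8 hypertrophic genes called lower. Scaling moved the median of all genes by less than 0.1. Precision is limited by 5 animals a group. In simulated data, where far fewer genes changed than were called here, most 1.5-fold changes were missed. No paired analysis was possible because the labels do not say which affected and control dogs shared a litter.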

Other observations

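In the fibroblast and periosteum list 4 of 12 tested genes rose, 0 fell and 8 did not pass. COL6A3, a type VI collagen chain, was at 367, 547, 896, 482 and 619 CPM in the controls and 1732, 1853, 952, 2213 and 1438 CPM in MPS VII (log2 fold change 1.49 (SE 0.30), edgeR, adjusted p = 0.000946). COL14A1, a collagen that binds fibrils, and FAP, a protease of activated fibroblasts, rose by 1.56 (SE 0.38) and 0.82 (SE 0.19), FAP not being called without control replicates 1 and 4. In the tendon and annulus list 3 of 7 rose, among them SCX, the tendon factor scleraxis, by 1.51 (SE 0.36) from 3.35, 4.71, 1.81, 1.31 and 2.38 CPM to 8.54, 9.85, 4.24, 9.53 and 6.59 CPM. The sum of that list was 984 to 1853 CPM in the controls and 2029 to 2842 CPM in MPS VII, and disc tissue, which adjoins the epiphysis, was removed in dissection. The part of adjoining tissue was not tested.

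Calls of the further lists are given here, where 11.3% of all tested genes were called higher and 10.7% lower. Of 12 tested ER stress genes 1 fell, of 12 interferon response genes 1 fell and 1 rose, and of 17 MHC class II and antigen presentation genes 2 rose, where 9 had been higher at day 9 and the difference between the ages passed for 0 with edgeR and 0 with DESeq2, 6 having an unadjusted edgeR p under 0.05. In the list of HOXA and HOXC genes 3 of 9 rose and 0 fell, 1 of the 3 by a close name match. The stroma and reticular cell list had 5 of 9 lower and 2 higher, with 2 lower without control replicate 4 or affected replicate 5 and 3 without affected replicate 4, and the cholesterol and lipid list 3 of 15 higher and 2 lower. The remaining lists, given as higher and lower of tested, were IGF with 2 and 1 of 9, Toll-like receptors and adaptors with 3 and 1 of 12, TREM and CD300 receptors with 2 and 0 of 3, potassium and other ion channels with 1 and 1 of 10, B and plasma cell with 1 and 1 of 7, mast cell and megakaryocyte with 0 and 2 of 6, pericyte and smooth muscle with 1 and 0 of 11, adipocyte with 0 and 1 of 5, and nerve and Schwann cell with 0 and 1 of 8. The erythroid and skeletal muscle lists had 0 called of 6 and of 9.

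On the X chromosome 90 of 555 tested genes were higher and 37 lower, and on the mitochondrial chromosome 0 of 17 were higher and 1 lower. Over all tested genes 11.3% were higher and 10.7% lower. The sex of the dogs is not in the labels used here.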
